A study of Homo sapiens with 6 samples.

Results

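RAG1, RAG2, DNTT, PTCRA, CD1A and CD1E, 6 genes whose activity marks the immature stages of T cell development, were followed through ATAC-seq peak lists from Jurkat cells. ATAC-seq uses a transposase to cut DNA where chromatin is open, so that a peak marks an accessible stretch. The 6 genes were taken by name from 20037 protein-coding genes, and each was given a window made of its RefSeq span extended by 50 kb to either side. The windows of RAG1 and RAG2 overlap, as do those of CD1A and CD1E, so the 6 genes make 4 loci of 641 kb in all and are not independent of each other. Jurkat is an established human T cell leukaemia line. The 3 normal gravity libraries (NG 1 to NG 3) came from nuclei handled without rotation, and the 3 simulated microgravity libraries (SMG 1 to SMG 3) from nuclei turned in a random positioning machine at 30° per second for 30 min at 37 °C. All 6 started from 50000 cells lysed for 3 min and had a transposition of 30 min at 37 °C, so the rotation acted on isolated nuclei and not on living cells. Whether replicate libraries stem from separate cultures is not stated in the labels, so each p-value refers to differences among these particular libraries, whose scatter may be purely technical.

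RAG1 and RAG2 together form the recombinase that cuts DNA at the signal sequences flanking V, D and J segments. Terminal deoxynucleotidyl transferase, encoded by DNTT, adds untemplated nucleotides to the joints before end-joining proteins seal them. A rearranged T-cell receptor beta chain is first paired with the invariant pre-T-alpha chain, encoded by PTCRA, and signals through CD3 as the pre-T-cell receptor. CD1A and CD1E encode lipid-presenting or lipid-transferring relatives of MHC class I, and surface CD1a is a classical marker of cortical thymocytes, also carried by Langerhans cells. In normal development these genes are active in double-negative and double-positive thymocytes and are shut down as T cells mature.

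The promoter windows of the 6 genes are shown because they divide the group: those of RAG1, PTCRA and CD1A lay under a peak in all 6 libraries, that of CD1E in 5, and those of DNTT and RAG2 in none. Each window runs from 250 bases before the gene's first listed start site to 50 bases after it, in RefSeq sequence of GRCh38.p14, read 5′ to 3′ on the strand of the gene. All 6 genes had an entry. Capitals mark every E-box, CANNTG, the core letters read by E proteins such as TCF3 and TCF12. The windows are chr11:36510103-36510402 for RAG1, chr6:42915803-42916102 for PTCRA, chr1:158248086-158248385 for CD1A, chr1:158353644-158353943 for CD1E and chr10:96304184-96304483 for DNTT, all on the plus strand, and chr11:36598187-36598486 on the minus strand for RAG2.
RAG1: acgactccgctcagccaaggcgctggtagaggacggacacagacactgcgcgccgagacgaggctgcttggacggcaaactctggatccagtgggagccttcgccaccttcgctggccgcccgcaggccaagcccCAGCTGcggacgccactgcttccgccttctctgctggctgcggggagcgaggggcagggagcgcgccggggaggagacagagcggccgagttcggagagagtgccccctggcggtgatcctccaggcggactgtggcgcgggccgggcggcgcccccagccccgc
PTCRA: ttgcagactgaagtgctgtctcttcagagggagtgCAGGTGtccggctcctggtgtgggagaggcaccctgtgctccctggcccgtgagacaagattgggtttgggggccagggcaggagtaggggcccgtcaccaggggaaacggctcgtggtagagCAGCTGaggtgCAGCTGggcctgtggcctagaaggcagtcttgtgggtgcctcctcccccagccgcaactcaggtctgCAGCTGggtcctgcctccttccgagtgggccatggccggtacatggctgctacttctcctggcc
CD1A: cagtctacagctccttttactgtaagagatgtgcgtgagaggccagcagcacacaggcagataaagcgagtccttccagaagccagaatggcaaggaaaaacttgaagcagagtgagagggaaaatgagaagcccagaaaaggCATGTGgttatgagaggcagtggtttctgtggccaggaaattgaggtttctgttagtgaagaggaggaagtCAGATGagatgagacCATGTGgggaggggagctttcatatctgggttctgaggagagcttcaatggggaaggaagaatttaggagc
CD1E: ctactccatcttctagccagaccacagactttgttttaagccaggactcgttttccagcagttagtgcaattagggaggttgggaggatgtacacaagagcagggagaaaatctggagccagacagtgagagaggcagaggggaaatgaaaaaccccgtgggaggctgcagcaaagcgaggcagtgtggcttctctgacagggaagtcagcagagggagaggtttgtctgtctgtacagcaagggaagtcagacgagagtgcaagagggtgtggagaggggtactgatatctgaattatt
DNTT: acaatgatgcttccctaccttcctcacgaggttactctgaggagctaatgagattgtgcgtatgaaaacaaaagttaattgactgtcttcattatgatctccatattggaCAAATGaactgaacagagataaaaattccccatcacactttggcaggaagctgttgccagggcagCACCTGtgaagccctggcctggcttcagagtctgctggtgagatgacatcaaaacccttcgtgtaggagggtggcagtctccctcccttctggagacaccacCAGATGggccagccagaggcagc
RAG2: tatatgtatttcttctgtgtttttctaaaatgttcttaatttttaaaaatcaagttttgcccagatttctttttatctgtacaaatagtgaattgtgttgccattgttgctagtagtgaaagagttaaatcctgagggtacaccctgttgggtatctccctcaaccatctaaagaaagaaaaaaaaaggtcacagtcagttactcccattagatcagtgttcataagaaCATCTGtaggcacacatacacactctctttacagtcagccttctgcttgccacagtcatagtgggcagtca

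The PTCRA window held 4 E-boxes, and 3 of them had the form CAGCTG, with first bases at −92, −81 and −14 from the start site. CAGCTG was present in 17.9% of the 35116 RefSeq promoter windows searched on both strands, and any CANNTG in 68.7%. RAG1 had a single E-box, also CAGCTG, at −115. CD1A had 3 E-boxes, at −107, −36 and −21, DNTT had 3, RAG2 had 1 and CD1E had 0. The RUNX letters TGTGGT, found in 13.1% of promoters, occurred in CD1A at −105, overlapping its first E-box, and in CD1E at −230. The GATA letters AGATAA, found in 10.3%, occurred in CD1A, DNTT and RAG2. The ETS letters AGGAAG, found in 33.6%, occurred in CD1A and in DNTT with 2 copies each. The other ETS form CCGGAA (17.2% of promoters), the MYB letters CAACTG, which are also an E-box (11.4%), and the TATA box TATAAA (11.5%) were in none of the 6 windows. The matches are descriptions of letters and did not divide the windows with a peak from those without: DNTT held E-boxes, GATA and ETS letters and had no peak.

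The peak lists held 37782 to 43713 peaks per library, and the median peak had 15 to 21 fragments over its summit. NG 1 had the fewest peaks and the fewest summit fragments. Strength is given as a score percentile, the share of a library's own peaks that rank below a given peak by the authors' −log10 q, because scores move with depth. A peak shows accessibility, not expression, and the lack of a peak in these lists does not show closed chromatin. Percentile intervals were not computed, since the lists hold no read counts, and fragment numbers at summits were recovered from the fold enrichment and p-value of each peak.

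**Figure D1:**
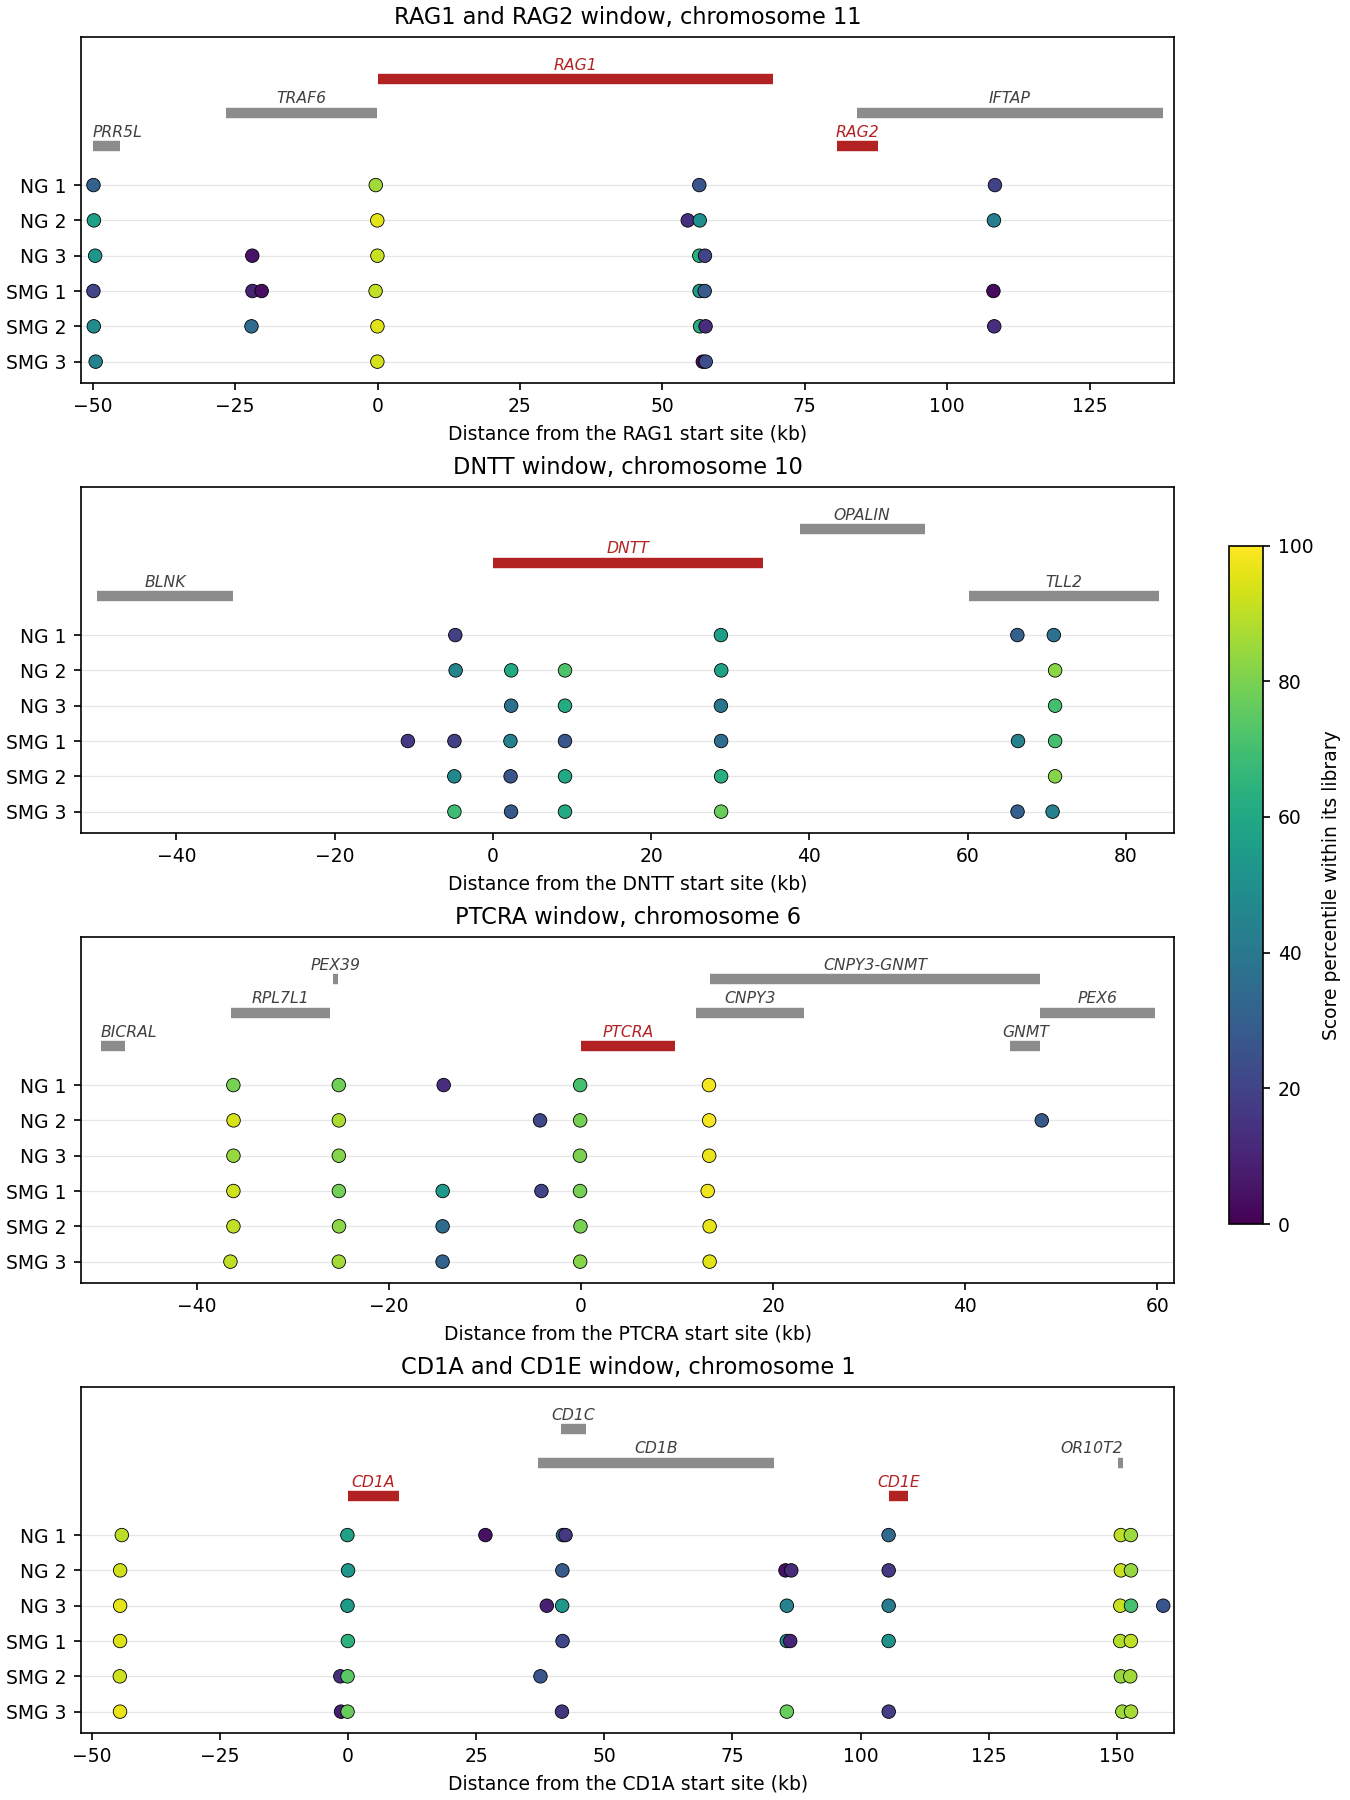
Peaks of each library (rows, NG 1 to SMG 3) in the 4 loci, with distance from a member's start site in kb on the horizontal axis, gene spans above the rows and the 6 genes in red. Each point is a peak at its summit, coloured by its score percentile; columns of 6 points stand at the starts of RAG1, PTCRA and CD1A, and no point stands over the span of RAG2.

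RAG1, the catalytic subunit of the recombinase, had the strongest peak at a listed start site among the 6 genes. The gene lies on the plus strand of chromosome 11, from 36510353 to 36579762. Its start-site peak stood at percentile 85.8, 95.8 and 91.6 in NG 1, NG 2 and NG 3, and at 90.3, 95.1 and 93.4 in SMG 1, SMG 2 and SMG 3. All 6 values were high within their libraries, NG 1 was lowest, and the groups overlapped. Fold enrichment over local background was 8.22 to 12.3, with 35 to 80 fragments at the summit. The group means were 91.0 ± 5.04 (SD, n = 3) in NG and 93.0 ± 2.42 (SD, n = 3) in SMG (two-sided exact permutation test, p = 0.7). The 10 divisions of 6 libraries into 3 and 3 allow no p below 0.1, here and in every group test.

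The RAG1 start peak was shared with TRAF6, a ubiquitin ligase of cytokine and Toll-like receptor signalling. The start sites of these oppositely transcribed genes are 81 bp apart, and their promoter windows share 180 bases. In NG 2, NG 3, SMG 2 and SMG 3 the summit lay 51 to 23 bp before the RAG1 start, between both start sites. In NG 1 and SMG 1 it lay at −317 and −348 bp, beyond the TRAF6 start and inside that gene. Accessibility of RAG1 and of TRAF6 cannot be told apart at this peak. As background, the coding exon of RAG1 and the start classically used in lymphoid cells lie far inside the span. That start is not in the table used here. The rank, E-box and CpG count given for RAG1 therefore describe the listed start only. Whether any peak inside the span lies at the classical start was not tested.

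A second, weaker group of peaks lay deep in the RAG1 span. The region chr11:36566572-36567149, 56.5 kb after the listed start and 12.9 kb before the gene's far end, was at percentile 26.4, 49.5 and 63.7 in NG 1, NG 2 and NG 3, and at 55.1 and 62.7 in SMG 1 and SMG 2. SMG 3 had no peak in that region and had a peak at percentile 2.68 in the adjoining chr11:36567397-36567601. The next region, chr11:36567737-36568110, held peaks of NG 3 at 20.3 and of SMG 1, SMG 2 and SMG 3 at 28.3, 12.5 and 23.5. Every library thus had at least 1 peak in this stretch, all below the start peak of the same library. At the outer edge of the RAG1 window, a region inside PRR5L, chr11:36460294-36461103, was held by all 6, at 46.9 ± 14.1 in NG and 37.4 ± 15.2 in SMG (SD, n = 3, exact permutation test, p = 0.5).

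RAG2, the cofactor that RAG1 needs for cutting, had no peak over its promoter window or its span (minus strand, 36590996 to 36598236) in any library. Its start was 86.4 kb from the nearest region held by all 6 libraries, against a median of 2.32 kb over protein-coding genes, and 14.5% of those genes lay farther. The 2 or 3 peaks per library in its window were those inside RAG1 and a weak region inside IFTAP, chr11:36618143-36619167, centred 20.4 kb upstream of the RAG2 start. That region held peaks of NG 1 and NG 2 at percentile 19.6 and 42.3 and of SMG 1 and SMG 2 at 2.82 and 13.6, with none in NG 3 or SMG 3.

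DNTT had no start-site peak in any library but carried peaks inside the gene (plus strand of chromosome 10, 96304434 to 96338564). Region chr10:96332904-96333743, 28.9 kb into the gene and 5.24 kb before its far end, was found in all 6, at percentile 55.9, 57.3 and 39.4 in the NG libraries and 35.3, 63.2 and 77.1 in the SMG libraries. The groups overlapped (exact permutation test, p = 0.6). Region chr10:96313144-96314066, 9.17 kb into the gene, was at 72.1 and 61.1 in NG 2 and NG 3 and at 26.5, 60.1 and 60.3 in SMG 1, SMG 2 and SMG 3. Its summits fell within 6 bp of each other. Region chr10:96306475-96306995, 2.30 kb into the gene, was at 60.7 and 37.3 in NG 2 and NG 3 and at 44.4, 25.9 and 28.0 in the SMG libraries. NG 1, the library with the fewest peaks, lacked both of these regions, and the part of its depth was not tested. Upstream, chr10:96299389-96299997 at −4.74 kb had peaks in 5 libraries, at percentile 19.2 to 69.0, with none in NG 3. Beyond the gene's far end, chr10:96374953-96375793 inside TLL2, a metalloprotease gene, was held by all 6, at 37.8 to 82.4.

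PTCRA, which encodes the pre-T-alpha chain, had a start-site peak of nearly the same rank in 5 of 6 libraries. The gene spans 42916053 to 42925838 on the plus strand of chromosome 6. Its start peak stood at percentile 70.5, 79.1 and 79.9 in NG 1, NG 2 and NG 3 and at 78.9, 79.6 and 81.8 in SMG 1, SMG 2 and SMG 3. NG 1 was lowest and the other 5 values spanned 78.9 to 81.8. Fold enrichment was 6.52 to 8.33, with 23 to 41 summit fragments. The group means were 76.5 ± 5.21 (SD, n = 3) in NG and 80.1 ± 1.52 (SD, n = 3) in SMG (exact permutation test, p = 0.5). The 6 summits lay between −97 and −41 bp, the stretch that holds the CAGCTG copies at −92 and −81 printed above.

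Other regions held by all 6 libraries in the PTCRA window lay at promoters of its neighbours RPL7L1 (percentile 79.5 to 93.9), PEX39 (78.4 to 87.7) and CNPY3 (95.5 to 98.5). Between PEX39 and PTCRA, chr6:42901535-42901964, 14.3 kb before the PTCRA start and within no gene, had a peak in NG 1 at percentile 12.9 and in SMG 1, SMG 2 and SMG 3 at 53.6, 34.5 and 30.9. The NG 1 peak had 8 summit fragments, and the SMG peaks had 13 to 17. NG 2 and NG 3 had no peak there. The NG 1 peak, the only one in NG, had a −log10 q of 2.90. Leaving out NG 1, or asking for a −log10 q of at least 5, removes it by construction. What then remains is a region of the SMG libraries alone, which says nothing further about the groups. With all libraries and peaks kept, 0.411% of all merged regions were held by all SMG and no NG libraries.

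CD1A, which encodes the cortical thymocyte marker CD1a, had a start-site peak in all 6 libraries, and it ranked higher in each SMG library than in any NG library. The gene spans 158248336 to 158258269 on the plus strand of chromosome 1. Its start peak stood at percentile 56.7, 53.0 and 53.7 in NG 1, NG 2 and NG 3. The SMG 1, SMG 2 and SMG 3 values were 64.2, 74.5 and 76.9. Fold enrichment was 6.30, 6.13 and 6.21 in NG and 7.35, 8.71 and 8.38 in SMG, and summit fragments numbered 14, 19 and 18 against 19, 30 and 32. The group means were 54.5 ± 1.93 (SD, n = 3) and 71.9 ± 6.78 (SD, n = 3), a difference of 17.4 percentile points (exact permutation test, p = 0.1, the smallest possible). Adjusted by Benjamini-Hochberg over the 24103 regions held by all 6 libraries, p was 0.962. Over those regions, 10.4% had groups that did not overlap, so the lack of overlap at CD1A is a description of this peak and passed no test. Leaving out any 1 library kept the difference between 14.9 and 21.3. Its sign could not change, since the peak was chosen for this check because every SMG value lay above every NG value.

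Around CD1A, a strong region in all 6 libraries, chr1:158203570-158204473, lay 44.3 kb before the gene and within no gene, at percentile 89.5, 92.9 and 96.5 in NG and 94.6, 92.3 and 96.6 in SMG. A weak region 1.42 kb before the CD1A start, chr1:158246798-158247032, had peaks in SMG 2 and SMG 3, at 13.9 and 8.52. The second listed start of CD1A, at 158254424, lay under no peak.

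CD1E, which encodes an intracellular lipid-transfer member of the family, had the weakest of the start-site peaks. The gene spans 158353894 to 158357553 on chromosome 1, plus strand. Its start peak was at percentile 33.8, 16.4 and 41.3 in NG 1, NG 2 and NG 3 and at 51.1 and 18.3 in SMG 1 and SMG 3, and SMG 2 had none. These peaks had 10 to 15 fragments at the summit, fewer than the median peak of these lists, and a peak of this size missing from SMG 2 alone does not show a difference between libraries. Summit positions were alike, 98 to 73 bp before the start. A region 20.1 kb upstream, chr1:158333474-158334103, was at percentile 4.44 and 43.9 in NG 2 and NG 3 and at 49.8 and 77.2 in SMG 1 and SMG 3. Its nearest region held by all 6 libraries, chr1:158398637-158399591 at 45.2 kb downstream, covers the promoter of OR10T2, an olfactory receptor gene. That region ranked lower in SMG (86.2 ± 2.14, n = 3) than in NG (91.1 ± 1.00, n = 3). The neighbouring intergenic region chr1:158400559-158401255 ranked higher, at 87.5 ± 2.24 against 80.1 ± 7.80 (SD, n = 3). NG 3, at 71.1, was the lowest value there, and without it the difference went from 7.45 to 2.95. Ranked by fold enrichment, the groups overlapped at this region (difference 9.54, exact permutation test, p = 0.3), and the difference at the OR10T2 promoter went from −4.85 to −10.9. By −log10 q, groups did not overlap at either, with exact permutation p = 0.1 and adjusted p = 0.962 for each, and these neighbours differed in opposite directions.

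**Figure D2:**
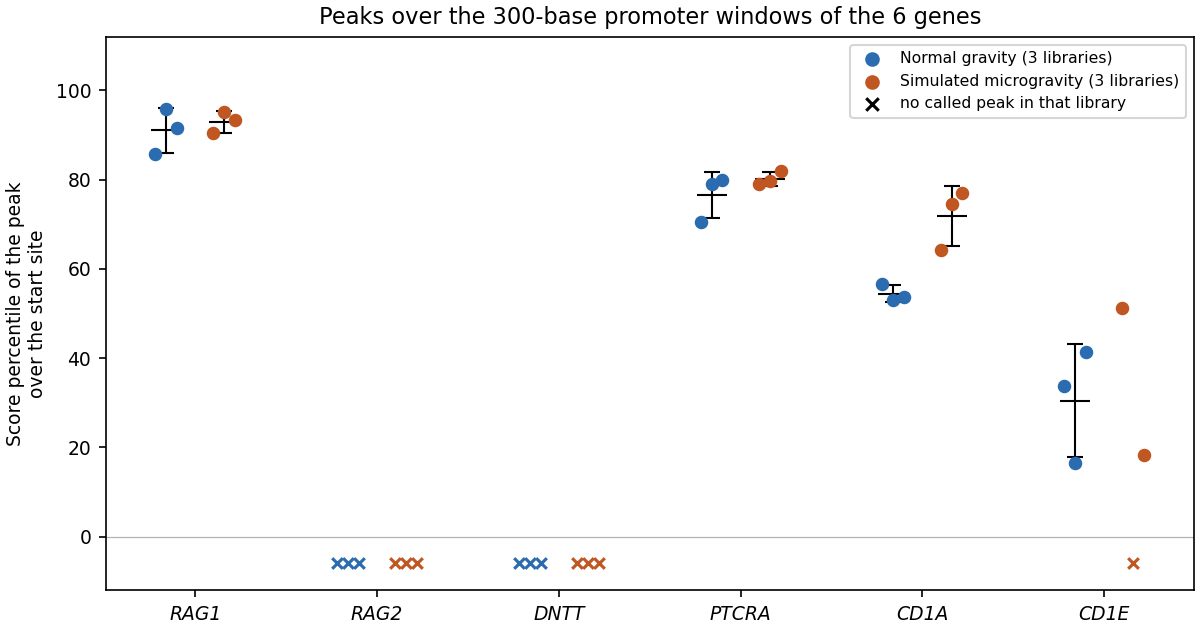
Score percentile (vertical axis, percent of the library's own peaks ranking lower) of the start-site peak of each gene in each library, NG in blue and SMG in orange, with group means and SD where all 3 libraries of the group have a peak. RAG1 stands highest at 85.8 to 95.8, PTCRA at 70.5 to 81.8, CD1A at 53.0 to 76.9 with its groups apart, and CD1E lowest; crosses mark libraries with no peak, which are all 6 for RAG2 and DNTT.

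Among the 6611 protein-coding genes with a promoter-window peak in all 6 libraries, 41.7% of the 15843 with a window, RAG1 had a mean percentile of 92.0, above 73.0% of them. That RAG1 value belongs to the peak shared with TRAF6 and cannot be credited to RAG1 alone. PTCRA had 78.3, above 39.2%, and CD1A 63.2, above 16.7%. The median of those genes was 83.7. The order RAG1, PTCRA, CD1A, CD1E held within each of the 5 libraries with all 4 peaks, and RAG1, PTCRA, CD1A within SMG 2. Across libraries RAG1 and PTCRA did not overlap, while PTCRA (lowest value 70.5) and CD1A (highest value 76.9) did. The share of members with such a peak, 3 of 6, was close to the background share.

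The start sites also differed widely in base composition. The RAG1 window, which shares 180 bases with that of TRAF6, held 32 CpG dinucleotides and was 72.3% G and C. PTCRA held 8, CD1E 4, DNTT 3, CD1A 2 and RAG2 0, against a median of 14 over all 35116 promoter windows. Of the 1542 genes with 0 to 2 CpG, 24 (1.56%) had a peak over the window in all 6 libraries and 95.1% had none in any. CD1A was among the 24, ranked 11 by mean percentile, in a group led by TLR9, a sensor of DNA in endosomes, RETNLB, a secreted resistin-like protein, and LCP1, an actin-bundling protein. RAG2 was among the rest of that class. Of genes with 3 to 5 CpG, the class of DNTT and CD1E, 4.55% were open in all 6. The share was 13.1% with 6 to 10 CpG, the class of PTCRA, and 58.5% with 21 or more, the class of RAG1. These shares describe all genes with a window and no test compared the members with them.

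**Figure D3:**
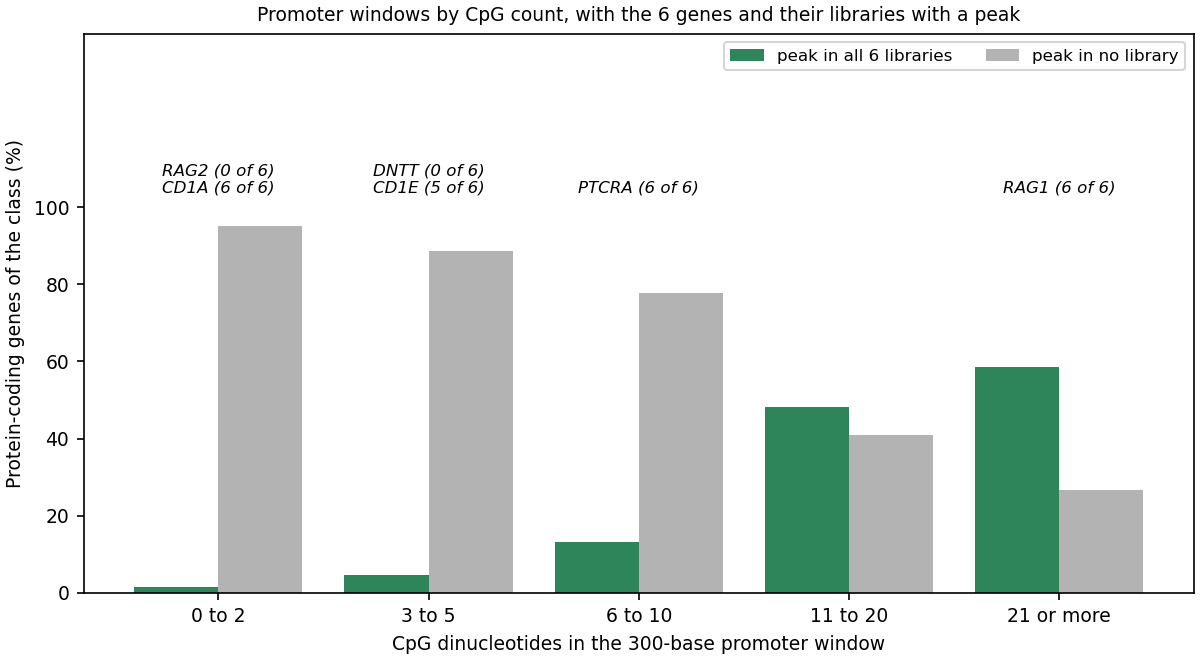
Share of protein-coding genes (vertical axis, %) whose promoter window had a peak in all 6 libraries (green) or in none (grey), by the number of CpG dinucleotides in the window, with each of the 6 genes and its number of libraries written over its class. The green share goes from 1.56% to 58.5%, and CD1A is an open gene of the lowest class.

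With all peaks kept, the groups did not differ across the 4 loci in peak number or coverage beyond the spread between libraries. The windows held 21, 24 and 22 peaks in NG and 28, 22 and 23 in SMG (22.3 ± 1.53 against 24.3 ± 3.21, SD, n = 3, exact permutation test, p = 0.6). They covered 11046, 14164 and 13401 bp in NG and 14093, 13429 and 13248 bp in SMG (exact p = 0.8). The median percentile of these peaks was 37.8, 57.3 and 57.4 in NG and 47.1, 63.0 and 69.0 in SMG, a difference of 8.86 (exact permutation test, p = 0.4), and the groups overlapped. That difference was 1.09 at a −log10 q of at least 5, 2.10 with windows of 10 kb, 1.95 with windows of 100 kb and 2.33 without NG 1. With the same number of top peaks taken from each library, the groups did not overlap in peak number. The windows then held 21, 21 and 21 peaks in NG and 24, 22 and 22 in SMG (exact permutation test, p = 0.1, the smallest possible). For peak number the exact permutation p was 0.7 at a −log10 q of at least 5, 0.4 with windows of 10 kb and 0.2 with windows of 100 kb. Per 100 kb of window the libraries had on average 4.71 peaks at PTCRA, 3.86 at CD1E, 3.85 at DNTT, 3.49 at CD1A, 3.05 at RAG1 and 2.33 at RAG2, beside a median of 2.29 over protein-coding genes. By gene, the largest difference in peak number was at DNTT, with 4, 5 and 4 peaks in NG and 7, 5 and 6 in SMG, a difference of 1.67 (exact permutation test, p = 0.2), which was 4 with a window of 100 kb (exact p = 0.1). The other 5 genes differed by 1 peak or less on average, with exact p between 0.5 and 1.

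Merging the peaks of all libraries gave 37 regions in the loci. Of these, 12 (32.4%) held a peak of every library, beside 34.6% of all 69562 merged regions. Those 12 had a median mean percentile of 83.2, the 15 regions held by 2 to 5 libraries 32.2, and the 10 held by a single library 14.6. No region had peaks of all 3 SMG libraries alone or of all 3 NG libraries alone, against 0.411% and 0.26% of all merged regions. In 37 regions these shares come to less than 1 region, so a count of 0 says little about the loci. Of the 12, 3 had groups that did not overlap in percentile, CD1A and the pair downstream of CD1E, beside the 10.4% given above. A region held by all 6 libraries lay in the windows of 5 of the 6 genes, all but RAG2, where 82.7% of protein-coding genes had one.

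**Figure D4:**
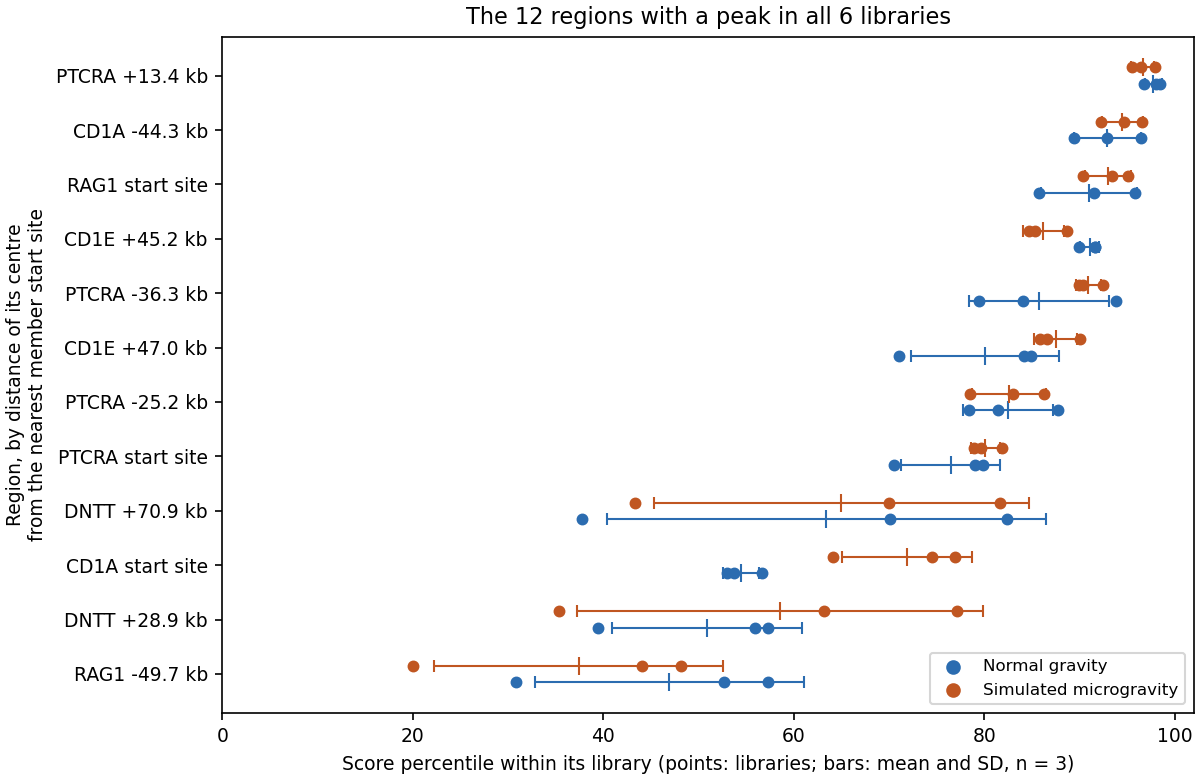
Score percentile in each library of the 12 regions found in all 6 (NG blue, SMG orange), labelled by the nearest of the 6 genes and the distance of the region's centre from its start site in kb, with bars for the mean and SD of each group (n = 3). At the CD1A start the NG points lie at 53.0 to 56.7 and the SMG points at 64.2 to 76.9; in 9 of the 12 regions the groups overlap.

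Most genes that work with the 6 members had a peak in or near their span. With a peak in the gene span extended by 1 kb in all 6 libraries counted as open, 60.5% of protein-coding genes were open. Of 11 genes for end joining and hairpin opening after cutting, 10 were open, led by HMGB1 (mean percentile of the best peak 97.7), a DNA-bending cofactor of the recombinase, PRKDC (97.2), the kinase that acts with the Artemis nuclease, and XRCC4 (96.7), a partner of the ligase. PAXX had a peak in 5 libraries. All 9 partners and signalling genes of the pre-T-cell receptor were open, led by the adaptor LCP2 (99.4) and the kinases FYN (97.4) and ZAP70 (97.2). Of 14 transcription factors known to act on these genes, 12 were open, led by MYB (97.1), RUNX1 (95.6) and IKZF1 (94.9). FOXO1 had a peak in 4 libraries and ID3, an inhibitor of E proteins, in 2. In the CD1 family outside the members, CD1D (53.8) and CD1B (30.0) were open, and CD1C (30.7) had a peak in 5 libraries. CD1B and CD1C overlap in the gene table, so part of their peaks is shared. A peak anywhere in the span is a looser measure than the promoter windows used for the members. Of list genes with a promoter window, it held a peak in all 6 libraries for 7 of 9 end-joining and 6 of 7 pre-T-cell receptor genes. The count was 3 of 12 for the transcription factors and 0 of 2 for the CD1 family, beside 41.7% of protein-coding genes. CD1D and CD1C had a promoter peak in 2 libraries each. MYB had a promoter peak in 0 libraries, and RUNX1 and IKZF1 in 1 each.

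Marker lists of thymocyte stages were counted the same way, beside the same 60.5% of protein-coding genes that were open. Of 9 cortical double-positive genes 8 were open, led by the water channel gene AQP3 (mean percentile 95.7) and by CD8A (89.3) and CD8B (86.6), the chains of the CD8 coreceptor, and TRAC, the alpha-chain constant region, had no peak. Of 8 mature single-positive genes 5 were open, led by the transcription factors RUNX3 (67.9) and ZBTB7B (63.4), and 3 had peaks in some libraries. KLF2, a regulator of thymic exit, was the least of them, with a peak in 1 library. Of 10 progenitor and early double-negative genes 4 were open, led by the adhesion genes CD44 (94.3) and CD34 (78.9), and 6 had peaks in some libraries. All 6 genes of T cell identity were open, but CD3D, CD3E, CD3G and LCK among them were already counted with the pre-T-cell receptor genes. SATB1 likewise stands in both the cortical and the transcription factor list. Among other cells that use the recombinase, 4 of 8 precursor B cell genes were open, and CD79A and CD79B, the signalling chains of the B cell receptor, had none. Among other cells that carry CD1, 2 of 6 dendritic and Langerhans genes were open. These were IRF8 (81.6), with a promoter peak in all 6 libraries, and BATF3 (48.9). CD207, ITGAX, CLEC10A and FCER1A had no peak in any library. Among stage genes with a promoter window, 4 of 5 cortical, 1 of 5 mature and 1 of 8 progenitor genes had a promoter peak in all 6 libraries. The count was 1 of 3 for T cell identity, 2 of 6 for precursor B cell and 1 of 3 for dendritic and Langerhans genes. AQP3 had a promoter peak in 2 libraries, and ZBTB7B and CD44 in 0. The lists differ in gene length and promoter composition, no test compared them, and a count of open genes assigns no stage to the line.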

How the data were processed

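ATAC-seq was performed on Jurkat nuclei in 6 libraries, 3 per group. Per the submitters' processing notes, FastQC, BWA, Bowtie, SAMtools and MACS2 were used with hg38; no source used here gives versions or settings. For each library the authors deposited a MACS2 peak list of 10 columns. The deposited values are a score, a fold enrichment (ratio) at the summit, a −log10 p-value, a −log10 q-value and the summit offset. The lists hold no read totals, so the depth is unknown beyond the summit fragments solved from fold and −log10 p with the MACS2 formulas, within 0.001.

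Gene spans and promoter windows came from RefSeq GRCh38.p14, the same primary assembly as hg38. Coordinates are 1-based. A peak counted with an overlap of 1 bp or more, and peaks overlapping across libraries were merged. Percentiles rank peaks by −log10 q within a library, ties sharing their mean rank. Groups were compared by two-sided exact permutation tests over the 10 divisions of the libraries. Every member is named, with every region held by all 6 libraries, and list genes are named by the highest mean percentile, up to 4 per list, with genes lacking peaks in some or all libraries and other regions picked out after their values were seen. The members and lists were chosen with earlier results of these data known. Python 3.11.15, numpy 2.4.6, pandas 2.3.3, scipy 1.17.1 and matplotlib 3.10.9 were used, and the counting and tests were tested on simulated data. Alternatives changed the window, threshold, merging, ranking and libraries.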

Additional observations from a re-analysis of the deposited data

How the results depend on the processing

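Of 178 alternative values, 160 kept their direction or, for counts, their approximate size. The permutation tests allow no p below 0.1 and the sign flips none below 0.25. No value could therefore cross the threshold of 0.05, and p-values are no measure of stability here. Some of the 160 were fixed in advance. Blocking by replicate number leaves each difference as it is. Leaving out a library cannot reverse the difference at a region chosen because its groups did not overlap. The 160 of 178 is therefore no rate of stability. A window of 10 kb left 5 regions held by all 6 libraries and one of 100 kb gave 19, in place of 12, as the construction of the windows implies. Group-only regions numbered 1 in place of 0 at a −log10 q of at least 5, and 0 to 1 when each library was left out. Those were the PTCRA −14.3 kb region without NG 1, the region inside RAG1 at chr11:36567737-36568110 without NG 3, and the CD1A −1.42 kb region without SMG 1. In each, the left-out library was the only one that kept the region from being group-only, so these counts follow from the values already given. Leaving out each library gave 12 to 14 regions held by all that remained, 5 to 6 gene windows with such a region (5 with all libraries), and 3 to 4 start sites with a peak in all (3 with all libraries), the last a check added after seeing the data. The SMG minus NG difference in peak number ranged from 0.167, without SMG 1, to 3.17, and that in median percentile from 2.33, without NG 1, to 15.1, without SMG 1. Over the other settings the difference in peak number was 1.67 to 4.33 and that in median percentile 1.09 to 9.56, with 1.32 when peaks near other genes' ends were dropped, a setting chosen after seeing the data. The difference in covered bases ranged from −192.5 to 1366.5 bp over left-out libraries and reversed without NG 1, at −192.5. Over the other settings it lay between 56.7 bp, with windows of 10 kb, and 2518 bp, with windows of 100 kb. The difference in peak number changed sign for CD1A, CD1E and PTCRA and for no other gene: DNTT stayed at 1 to 4, RAG1 at 0.333 to 1.83 and RAG2 at 0 to 1. CD1A went from −0.333 to 0.667 with a 10 kb window and ranged from −0.833 to 0.167 over left-out libraries, with 0.167 without NG 1. CD1E went from −0.667 to 0.333 at the stricter threshold and ranged from −1.33 to 0.167, with 0.167 without SMG 2. PTCRA ranged from −0.167, without NG 3, to 0.833. The cause of these changes was not tested. The CD1A start difference was 18.6 percentile points when ranked by fold enrichment and 17.5 by the score column, alternatives chosen after seeing the data. For 99.955 to 100% of a library's peaks the score is 10 times the −log10 q, so that ranking repeats the main one. Fold enrichment is taken at the same summit, and the peak was followed because its groups did not overlap. Neither value is separate support. Deviations of same-numbered libraries correlated at 4.59e-05, −0.00681 and −0.0158, and those of different-numbered libraries at −0.0152 to 0.0238. These values show no pairing by replicate number in the deviations. They cannot tell whether same-numbered libraries were handled together, which the labels do not state. With the replicate number as a block, the difference of 2 peaks had an exact sign-flip p of 0.75 and that of 8.86 in median percentile an exact p of 0.25, the smallest that 3 pairs allow. The start peaks of CD1E had 10 to 15 summit fragments, where the median peak of a library had 15 to 21, and the part of depth in the presence of such weak peaks was not tested.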
